A study of Mus musculus with 11 samples.

Results

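The data were RNA-seq profiles of single mouse embryos at the 8-cell stage, and the genes described here were those whose level was higher in every embryo without Prdm10 than in every control embryo. A gene was taken when its mean level in the 5 mutant embryos was at least 5 TPM (a length-corrected share of each library's transcripts), when all 5 mutant values lay above all 6 control values, and when the ratio of the mutant mean to the control mean was at least 1.4. Slc2a1, Klf5, Krt18, Cldn4, Ccng1 and the mitochondrially encoded mt- genes were left out by name. 16 of 54146 genes were taken. They are Ocrl, Vps8, Vps26c, Arl5c, Anxa4, Tspan9, Slamf7, Lmo7, Chn2, Fibp, Nrd1, Nsl1, Epas1, Cited4, Hsf2 and Gm21917.

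All embryos were C57BL/6, came from natural matings and were taken at embryonic day 2.5. The mutants were Prdm10Δ/Δ, which lack exon 5 on both alleles, from intercrosses of Prdm10Δ/+ parents. The null allele had been derived from a floxed allele with the ubiquitously active ACTB-Cre. Controls were Prdm10+/+ or Prdm10Δ/+ and were not told apart, because an embryo was assigned by whether exon 5 was found in its cDNA. Each embryo gave 1 Smart-seq2 library, in 2 batches that differed in the number of PCR cycles. Batch 1 (16 cycles) held 3 controls (replicates 4 to 6) and 2 mutants (replicates 4 and 5), and batch 2 (13 cycles) held 3 controls and 3 mutants (replicates 1 to 3 of each).

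PRDM10, a DNA-binding regulator of transcription, carries a PR domain and an array of zinc fingers. The 8-cell stage is when mouse blastomeres compact, form adherens junctions and begin to polarise, ahead of the split into inner cells and trophectoderm. The 16 genes fall into several functional classes. Ocrl, Vps8, Vps26c and Arl5c encode factors of endosomal and Golgi traffic, Anxa4, Tspan9 and Slamf7 encode membrane-binding or surface proteins, Lmo7, Chn2, Fibp, Nrd1 and Nsl1 encode proteins of junctions, signalling, proteolysis and the kinetochore, Epas1, Cited4 and Hsf2 encode transcription factors or cofactors, and Gm21917 is annotated as an antisense transcript.

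Libraries held 3534735 to 8265840 expected counts. The mt- genes took 9.88% to 15.3% of TPM in controls and 8.31% to 10.7% in mutants. Prdm10 itself was at 16.5 ± 4.62 TPM in controls (SD, n = 6) and 6.66 ± 1.47 in mutants (n = 5), with no overlap (11.1 to 24.8 against 4.88 to 8.16). Its difference did not pass the DESeq2 test on counts (log2 fold change -0.66 ± 0.26 SE, adjusted p = 0.224). The deposited effective length of Prdm10 was at most 3357 bases in any control and at least 4348 in any mutant, and with that length as an offset the log2 fold change was -1.29 and passed (DESeq2 adjusted p = 3.2e-05). 8-cell markers summed to 5263 to 6396 TPM in controls and 5138 to 5996 in mutants, mostly from Dppa3 (4240 to 5987 and 4549 to 5505 TPM). Oocyte markers summed to 34.5 to 121 TPM in controls and 46.6 to 78.8 in mutants. Oviduct epithelium markers summed to 0.29 to 25.2 TPM in controls (median 1.3) and 0.33 to 32.9 in mutants (median 5.6). Ovgp1, an oviduct marker, reached 24.2 TPM in a control and 30.1 in a mutant. Cdx2, a trophectoderm marker, stayed below 2 TPM in every embryo. One library stood apart. Control replicate 2 was the shallowest, and was the 1 embryo with more than 1 TPM of both Y-linked transcripts (18.2 TPM summed over 4 genes) and Xist (81.8 TPM). Without it, 46 genes met the rule in place of 16.

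Among the 7298 genes with a mutant mean of at least 5 TPM, 25 had all mutants above all controls, which is 0.343%. The ratio minimum reduced these to 18, and Klf5 and Ccng1 then fell out by name. The same rule turned round, for genes lower in every mutant, gave 51 genes. None of these counts was set against regrouped embryos, so the number that ordering alone would give was not tested. Because the 16 were selected on the genotype difference, their differences from controls are given as description, and nothing is read from how many of them pass a test of it. DESeq2 with batch as a term placed 4 of the 16 past an adjusted p of 0.05 (Anxa4, Ocrl, Epas1 and Slamf7), beside 0.536% of 10448 genes tested that were called higher. The edgeR quasi-likelihood test placed none of them past it, beside 0.0763% of genes called higher. For 14 of them the unadjusted p was under 0.05 with either tool, as it was, on the higher side, for 5.74% of genes with DESeq2 and 4.72% with edgeR. Leaving out 1 embryo changed the count of 4 to between 1 and 7. It was 7 without control replicate 2, 2 without control replicate 3 or mutant replicate 2 or 3, and 1 without control replicate 5 or mutant replicate 4 or 5.

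The rule's margins were narrow for many of the genes. Nsl1 (ratio 1.61) and Hsf2 (1.68) lay closest to the ratio minimum from inside, and Tspan9 (mutant mean 5.30 TPM) and Chn2 (5.67 TPM) closest to the level minimum. Dppa5a (1.37), Nsmce1 (1.37) and Ndufa9 (1.31) met all else and fell short on the ratio. Zfp58 (4.72 TPM) and 1700025G04Rik (4.71 TPM) fell short on the level. All 16 had a control mean below the median of the 7298 genes, 5.68 TPM as the median over the 16 against 25.6 TPM over all. Their ratios ran from 1.61 to 3.84 with a median of 2.11, beside a median of 0.995 over the 7298 genes.

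**Figure D1:**
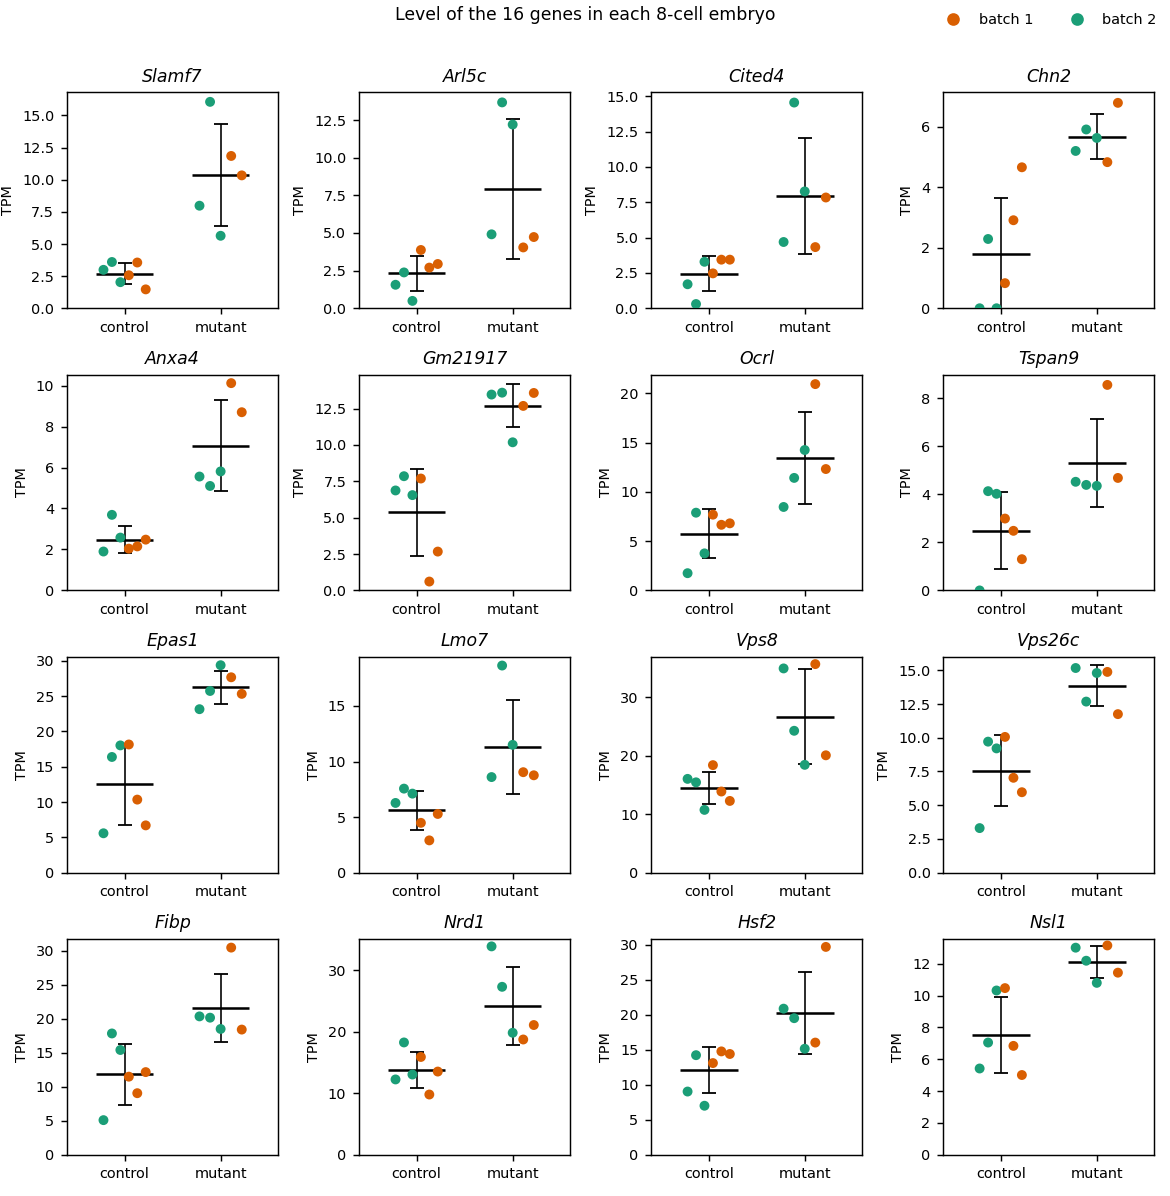
TPM (y axis, from 0) of each of the 16 genes in 6 control and 5 mutant embryos, coloured by batch, with the group mean (long line) and SD (bars); panels run from the highest ratio (Slamf7, 3.84) to the lowest (Nsl1, 1.61). Every mutant point lies above every control point because the genes were chosen that way, but the gap differs, from 0.05 TPM for Vps8 to 5.00 TPM for Epas1.

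The traffic genes are described first. Ocrl encodes a phosphatase that removes the 5-phosphate from phosphatidylinositol 4,5-bisphosphate on endosomes and the trans-Golgi, and its human counterpart is mutated in Lowe syndrome. Ocrl was at 8.47, 11.4, 14.3, 20.9 and 12.3 TPM in mutant replicates 1 to 5, while controls ran from 1.75 to 7.89 with a median of 6.74. Means were 5.76 ± 2.46 and 13.5 ± 4.66 TPM (ratio 2.34). The highest control, replicate 2, lay 0.58 TPM below the lowest mutant, and control replicates 1 (1.75) and 3 (3.76) lay well under the other controls.

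Ocrl is X-linked (X, 47912387 to 47965868, GRCm38), and the embryos were of both sexes. Among mutants, replicates 2, 4 and 5 had Xist at 82.2 to 92.6 TPM and replicates 1 and 3 had Y-linked transcripts at 50.8 and 30.6 TPM. Among controls, replicates 3, 4 and 6 had Xist alone (42.2 to 96.9 TPM) and replicates 1 and 5 had Y-linked transcripts alone. Within the Xist class Ocrl was at 3.76 to 7.69 TPM in controls and 11.4 to 20.9 in mutants. Within the Y-linked class it was at 1.75 and 6.66 TPM in controls and 8.47 and 14.3 in mutants. With summed Y-linked and Xist counts as covariates, an alternative chosen after the data were seen, 5 of the 16 passed the DESeq2 threshold, beside 1.02% of 10489 genes called higher. Chn2 and Cited4 were gained there and Slamf7 was lost (DESeq2 adjusted p = 0.0998).

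Vps8 encodes a subunit found in the CORVET tether of early endosomes and not in its late counterpart HOPS. It was at 34.9, 24.2, 18.4, 35.6 and 20.1 TPM in mutant replicates 1 to 5 and at 10.7 to 18.4 in controls (median 14.6). Mutant replicate 3 exceeded control replicate 4 by 0.05 TPM, so the groups nearly met. Vps26c encodes a subunit of retriever, which returns cargo from endosomes to the surface. It ran from 11.8 to 15.2 TPM in mutants and from 3.30 to 10.1 in controls, with means of 13.9 ± 1.54 and 7.54 ± 2.63. Arl5c belongs to the ARL5 branch of small GTPases, whose relatives recruit the GARP tether to the trans-Golgi. Mutant replicates 2 and 3 reached 13.7 and 12.2 TPM, the other mutants lay at 4.04 to 4.91, and controls ran from 0.49 to 3.87.

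Of the membrane and surface genes, Anxa4 encodes a calcium-dependent phospholipid-binding annexin. It was at 5.56, 5.10, 5.81, 10.1 and 8.70 TPM in mutant replicates 1 to 5 and at 1.90 to 3.69 in controls (median 2.31), a ratio of 2.85. Its controls were the least spread of the 16 genes in absolute terms (SD 0.65 TPM), and both batch 1 mutants lay above all batch 2 mutants. Tspan9, a tetraspanin, was at 4.35 to 4.68 TPM in 4 mutants and 8.55 in mutant replicate 4. Controls ran from 0 to 4.13 TPM, and the highest lay 0.22 TPM under the lowest mutant.

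Slamf7 encodes a receptor of the SLAM family best known from natural killer and plasma cells, and had the highest ratio (3.84). Mutant replicates 1 to 5 were at 7.98, 16.1, 5.64, 11.8 and 10.3 TPM, and controls at 1.47 to 3.60 (median 2.78). The lowest mutant thus lay 2.04 TPM above the highest control. Markers of blood and immune cells summed to 5.08 to 138 TPM in controls and 8.12 to 59.9 in mutants, with overlapping ranges. 12 of the 13 markers were above 0 in some embryo and 4 reached 5 TPM in some embryo. Lyz2, a gene of myeloid cells, reached 120.5 TPM in a control and 40.9 in a mutant. Sdc1, which marks plasma cells and many epithelia, reached 7.12 TPM in a control and 19.6 in a mutant. Nkg7 was at 0 in all, and Ptprc, the pan-leukocyte gene, was at most 2.90 TPM in a control and 0.07 in a mutant. The part of such cells in the Slamf7 values was not tested. By the labels each library is 1 whole embryo, and whether control replicate 2 held material of more than 1 was not tested. For every gene here more cells with the transcript and more transcript per cell cannot be told apart.

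Lmo7 encodes a LIM domain protein that links afadin to alpha-actinin at adherens junctions. It was at 18.6 TPM in mutant replicate 2, 11.5 in replicate 3 and 8.60 to 9.04 in the other mutants, against 2.90 to 7.56 in controls. Chn2 encodes beta-chimaerin, a diacylglycerol-binding activator of Rac GTP hydrolysis. It was listed at 0 TPM in control replicates 1 and 3 and reached 4.66 in replicate 6, while mutants lay from 4.83 to 6.79. Every one of these values was below the lower credibility limit deposited beside it. Fibp, named for binding acidic fibroblast growth factor inside cells, was at 30.4 TPM in mutant replicate 4 and at 18.4 to 20.3 in the others, against 5.09 to 17.8 in controls.

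Nrd1 encodes nardilysin, a metalloendopeptidase of the M16 family that cuts at dibasic sites. Mutants ran from 18.7 to 33.9 TPM and controls from 9.79 to 18.2. It overlaps Osbpl9 on the opposite strand, and Smart-seq2 libraries do not keep strand, so reads in the shared stretch could belong to either gene. Nsl1 encodes a subunit of the MIS12 complex, which joins the outer kinetochore to the centromere. Its mutants lay close together at 10.8 to 13.2 TPM, and control replicates 3 (10.3) and 4 (10.5) came within 0.5 TPM of the lowest of them.

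The 3 transcriptional regulators differed in margin. Epas1 encodes HIF-2alpha, the oxygen-regulated subunit of a hypoxia-inducible factor. It was at 23.1, 25.7, 29.4, 27.7 and 25.3 TPM in mutant replicates 1 to 5 and at 5.57 to 18.1 in controls (median 13.4), with means of 26.2 ± 2.37 and 12.5 ± 5.73 TPM. It had the widest gap of the 16 in TPM and was the 1 gene for which the lowest lower credibility limit of a mutant (19.999 TPM) exceeded the highest upper limit of a control (18.1 TPM), as RSEM computed them. Endothelial markers, which were followed because Epas1 is abundant in endothelium, summed to 23.9 to 80.7 TPM in controls and 20.4 to 74.3 in mutants, nearly all from Pecam1. Vwf and Emcn were at 0 in every embryo, and Cdh5, Kdr and Tek were under 1 TPM.

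Cited4 encodes a cofactor that binds CBP and p300. It ran from 4.33 TPM in mutant replicate 4 to 14.6 in mutant replicate 2, and from 0.30 to 3.44 in controls. Hsf2 encodes a heat shock factor with roles in gametes and embryos. It was at 20.9, 19.5, 15.2, 16.0 and 29.7 TPM in mutant replicates 1 to 5, and 4 controls reached 13.1 to 14.8. Gm21917 was at 13.5, 13.6, 10.2, 12.7 and 13.6 TPM in mutant replicates 1 to 5 and at 0.61 to 7.85 in controls. It lies at chromosome 15, 99931711 to 99953044 (GRCm38), opposite Fam186a.

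The embryos at the edges of these ranges are given as a description, since the rule used these values. Control replicate 1 was the lowest control for 43.8% of the 16 genes and 27.9% of the 7298, and mutant replicate 2 was the highest mutant for 31.2% and 10.9%. Control replicate 2, the library that stood apart, was the highest control for 50% of the 16, which is 8 genes, and for 14.3% of the 7298. Control replicate 4 was the highest control for 31.2% and 25.6%, and mutant replicate 4 the highest mutant for 37.5% and 29.2%, shares that lie near each other.

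Batches were compared next, since each held both genotypes. The rule itself put the mutant mean above the control mean in each batch for all 16, and the ratio was at least 1.4 in batch 1 for 15 (all but Arl5c, 1.38) and in batch 2 for all 16. A single batch of 3 controls with 2 or 3 mutants is a weak filter: 645 genes met the rule in batch 1 alone and 330 in batch 2 alone. 43 genes met it in both, which is 6.67% of the batch 1 genes and 13.0% of the batch 2 genes. 14 of the 16 were among the 43, a count in which only the level and the ratio were free to fail. Of 6582 genes with a mutant mean of at least 5 TPM in each batch, 7.79% met the rule in batch 1 and 4.35% in batch 2. 13 genes were higher in batch 1 and lower in batch 2 by the same rule, and 17 the other way.

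The sizes of the ratios differed between batches for some of the genes. Cited4 had a ratio of 1.95 in batch 1 and 5.20 in batch 2, and Arl5c of 1.38 and 6.95. Chn2 had 2.08 and 7.31, and the latter rests on 2 controls listed at 0 TPM, with 0 expected counts. Credibility limits deposited there were 1.54 to 5.29 and 1.70 to 5.81 TPM, but they belong to RSEM's posterior mean TPM, a second estimate of the level. Anxa4 (4.23 and 2.02) and Gm21917 (3.59 and 1.75) were larger in batch 1, and these 5 orders were the same in normalised counts. Tspan9 was larger in batch 1 in TPM (2.93 and 1.63) but larger in batch 2 in normalised counts (1.81 and 2.48). A batch by genotype term, which the rule did not use directly, passed the DESeq2 threshold for none of the 16. Arl5c alone had an unadjusted p under 0.05, beside 4.30% of 10472 genes. Its difference of log2 fold changes, batch 2 minus batch 1, was 2.31 ± 1.09 SE (DESeq2 fit across all genes, adjusted p = 0.9997). With edgeR none of the 16 had an adjusted or unadjusted p under 0.05 for this term. Because the rule asks all mutants to exceed all controls across batches, it favours genes that moved alike in both, and with 2 or 3 embryos in a cell these misses do not show that the batches were equal.

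**Figure D2:**
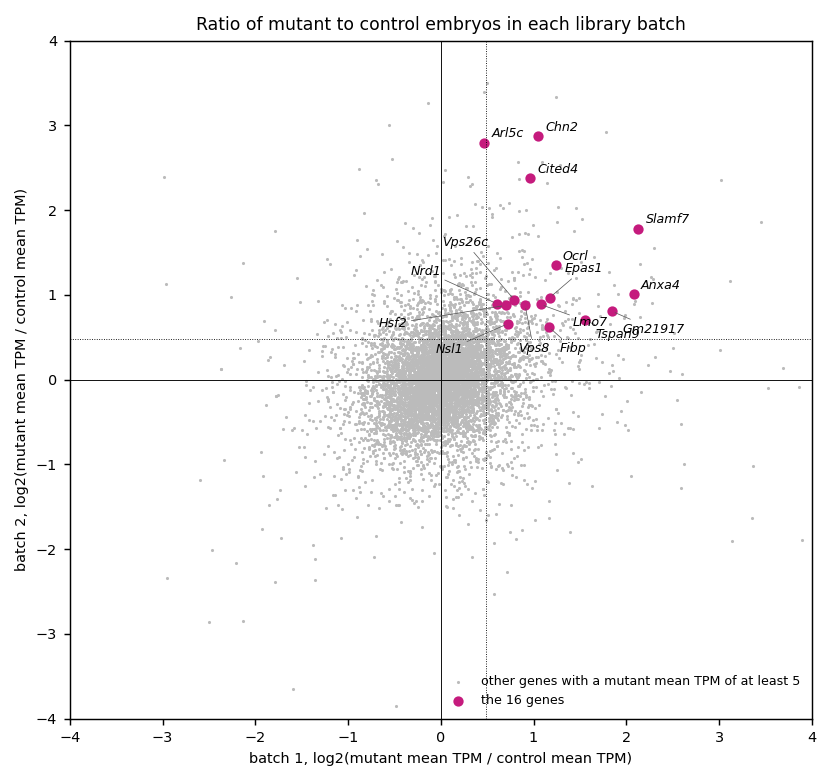
Log2 ratio of mutant to control mean TPM in batch 1 (x axis) and batch 2 (y axis) for 7238 genes with a mutant mean of at least 5 TPM and values above 0 in each batch, the 16 selected genes in magenta; solid lines mark 0, dotted lines the ratio of 1.4, and 6 other genes lie beyond the axes. All 16 sit in the upper right by selection, with Arl5c, Chn2 and Cited4 highest in batch 2 and Slamf7 and Anxa4 farthest right in batch 1, while 42.0% of the other genes had opposite signs in the batches.

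TPM divides reads by an effective length that RSEM sets from the isoform shares it assigns in each embryo, so the lengths were examined for each gene. Slamf7 was assigned 2260 ± 887 bases in controls and 1309 ± 302 in mutants, and its ratio was 3.84 in TPM but 2.44 in normalised counts. Nsl1 was assigned 3007 ± 648 and 2287 ± 662 bases, and its ratio was 1.61 in TPM and 1.25 in counts (103 ± 27.7 against 129 ± 26.0 normalised counts). Lmo7 and Vps8 were also assigned shorter lengths in mutants, with length ratios of 0.801 and 0.837 and count ratios of 1.57 each. Chn2, with no reads in 2 of the controls, went the other way, at 1317 ± 374 and 1891 ± 349 bases. In all, 6 of the 16 had a mutant mean length lower by over 10%, 1 had one higher by over 10%, and 8 changed by under 5%.

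When the order and the ratio were taken from normalised counts, 9 of the 16 still met the rule and Slamf7, Chn2, Lmo7, Vps26c, Nrd1, Hsf2 and Nsl1 did not. In Slamf7 the lowest mutant count (36.1) then fell just under the highest control (36.3). In Lmo7 1 of 5 mutants lay above all controls, and in Nsl1 2 of 5. Of the 176 TPM values for these genes, 44 lay outside the credibility limits deposited beside them, which belong to the posterior mean TPM. All 11 Chn2 values and 10 of the 11 for Tspan9 lay below their lower limits, as did 5 each for Anxa4 and Lmo7, 4 for Vps8 and 1 for Nrd1. Those of Anxa4, Lmo7 and Nrd1 were all in controls, and those of Vps8 were in controls apart from mutant replicate 3. For Epas1, whose effective length was the same in every embryo to within 1 base, 8 of 11 lay above their upper limits. The cause was not tested. With RSEM's posterior mean TPM, an alternative chosen after the data were seen, 11 of the 16 met the rule. Anxa4, Tspan9, Lmo7, Vps26c and Nrd1 did not, and Tspan9 also fell below the ratio minimum, with control and mutant means of 7.89 and 10.3 TPM. With the posterior mean the Chn2 ratio fell from 3.18 to 1.67, the Tspan9 ratio from 2.13 to 1.303 and the Anxa4 ratio from 2.85 to 1.96. Only the Epas1 ratio rose, from 2.10 to 2.13. With TPM rescaled without mt- genes 14 did, and Chn2 and Hsf2 did not. All 16 ratios were lower on that scale, where the median ratio of the 7298 genes was 0.972. 7 genes met the rule with each of these 4 quantities: Ocrl, Vps8, Arl5c, Fibp, Epas1, Cited4 and Gm21917.

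**Figure D3:**
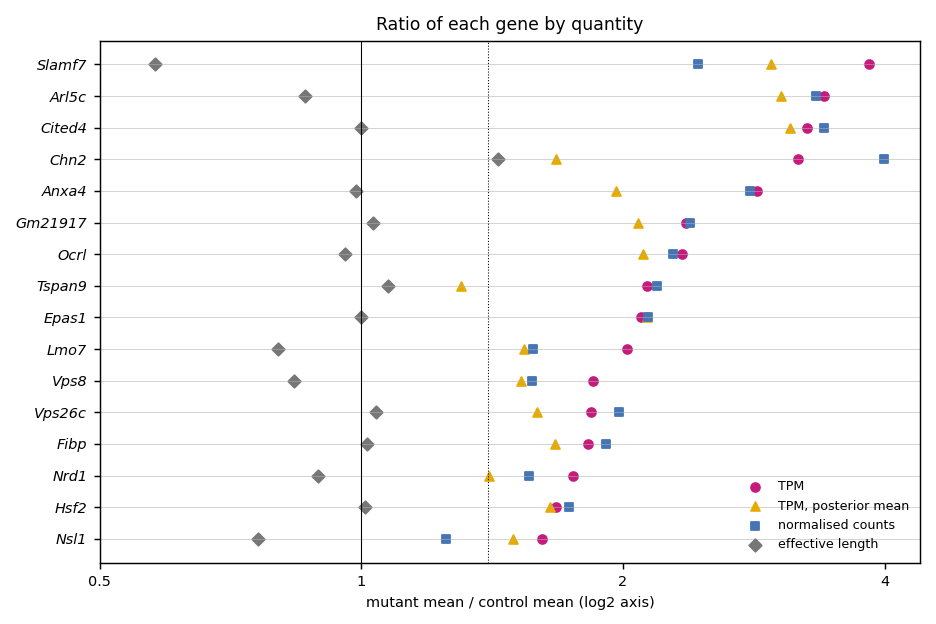
Mutant mean over control mean (x axis, log2 scale) for each of the 16 genes in TPM, posterior mean TPM, normalised counts and effective length, with lines at 1 and 1.4. For Slamf7, Lmo7, Vps8 and Nsl1 the length marker lies left of 1 and the count ratio is smaller than the TPM ratio; for Cited4 and Epas1 the length did not differ.

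The families and complexes of the 16 genes were then read from the same DESeq2 fit, without the 16 themselves. Over 14 lists, 127 other genes were tested, 1 was called higher, 1 was called lower and 15 had an unadjusted p under 0.05 (11.8%, beside 11.9% of all genes tested). Their median log2 fold change was 0.06, beside -0.0012 over all genes. With edgeR none of them was called, and 12 had an unadjusted p under 0.05.

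The annexins held the gene called higher. Anxa2, which binds phospholipids and actin at the plasma membrane, was at 1.56 ± 1.09 TPM in controls and 8.97 ± 10.3 in mutants (log2 fold change 2.29 ± 0.58, DESeq2 adjusted p = 0.0146). Its highest control (2.90 TPM) exceeded its lowest mutant (1.81 TPM). The call was lost without mutant replicate 2 (adjusted p = 0.232) or control replicate 3 (0.0547), and in 9 of 20 alternatives. 8 of the 9 annexins tested beside Anxa4 had a log2 fold change above 0, beside 49.8% of all genes tested. For 6 the unadjusted p was under 0.05 with DESeq2, beside 11.9% of all genes tested. The 9 had a median log2 fold change of 1.31, and nothing is read from these counts. Of the 6, Anxa1, Anxa3, Anxa5, Anxa8 and Anxa11 were not past the adjusted threshold. They were at 4.08, 7.06, 4.64, 4.08 and 10.4 TPM as mutant means and 0.898, 3.24, 1.94, 1.33 and 5.50 TPM as control means. Each of them overlapped between the groups, with Anxa1 at 0 to 10.5 TPM in mutants and 0 to 3.10 in controls. Anxa5 ran from 0.66 to 6.08 TPM in mutants and 0.43 to 2.92 in controls, and Anxa8 from 0.89 to 9.48 and 0 to 1.98. Anxa7, the most abundant annexin, was at 61.5 and 62.2 TPM in the groups.

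The fibroblast growth factor list held the gene called lower, Fgfr4, a receptor tyrosine kinase. Fgfr4 had a log2 fold change of -1.004 ± 0.28 SE (DESeq2 adjusted p = 0.0351). It was at 2.72 to 24.9 TPM in controls and 1.26 to 11.2 in mutants, ranges that overlapped, and the call was lost in 12 of 20 alternatives. Leaving out control replicate 1, 4 or 5 or mutant replicate 1, 2 or 5 was enough. Fgf1, the ligand for which Fibp is named, was at 1.95 ± 1.24 and 1.34 ± 0.79 TPM, and did not pass. Chosen after their values were seen, Fgf4, a ligand made by the early embryo, had a log2 fold change of -1.45 ± 0.47 and Grb2, the adaptor below the receptors, of 0.33 ± 0.16, with unadjusted p under 0.05 and DESeq2 adjusted p = 0.097 and 0.3997. The Fgf4 value moved with the processing, to -0.74 with the length offset (adjusted p = 0.553), -0.11 in batch 1 and -2.71 in batch 2 (adjusted p = 0.0142), and Fgf4 was called without mutant replicate 5 (-2.01, adjusted p = 0.00091).

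The other 12 lists held no called gene. Of the genes tested beside the selected one, 5 of 8 in the CORVET and HOPS list, 6 of 8 in the ARL5 and GARP list, 7 of 12 in the 5-phosphatase list, 7 of 18 in the retriever and retromer list and 2 of 11 in the kinetochore list had a log2 fold change above 0, beside 49.8% of all genes tested. Nothing is read from these counts. Tgfbrap1, the other subunit particular to CORVET, had a log2 fold change of -0.71 ± 0.37 beside 0.68 ± 0.25 for Vps8. Vps35l, the retriever partner of Vps26c, was at 0.33 ± 0.20, Vps29, the other retriever subunit, at -0.97 ± 0.45 (adjusted p = 0.377), Vps26a, the retromer paralog of Vps26c, at -0.57 ± 0.20 (adjusted p = 0.15), and Inpp5b, the closest relative of Ocrl, at -0.45 ± 0.44. Arl5a and Arl5b were at -0.34 ± 0.32 and -0.54 ± 0.30 beside 1.74 ± 0.58 for Arl5c. Mis12, the partner of Nsl1, was at -0.23 ± 0.30. None of these 8 passed the DESeq2 threshold. Chosen after their values were seen, Vps33b of the CORVET and HOPS list was at 0.89 ± 0.38 and Inpp5d, a 5-phosphatase best known from blood cells, at 1.21 ± 0.39. Chosen likewise, Spc25 of the NDC80 complex was at -0.83 ± 0.27 and Commd4 of the CCC complex at -0.67 ± 0.28. Each had an unadjusted p under 0.05, with DESeq2 adjusted p = 0.294, 0.0998, 0.103 and 0.289. Inpp5d was called without mutant replicate 4 (DESeq2 adjusted p = 0.00102) and in batch 2 (0.0435), and its value was 0.34 in batch 1. Spc25 was called without control replicate 4 (0.0325) or mutant replicate 4 (0.0198), Vps33b without control replicate 2 (0.0178), and Commd4 in no alternative.

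Hif1a, the other main oxygen-regulated subunit, was at 1.92 ± 2.06 TPM in controls and 3.51 ± 3.08 in mutants (log2 fold change 0.05 ± 0.56). Cited2 had a log2 fold change of 1.219 ± 0.82, which was 0.24 without mutant replicate 2, 0.096 in batch 1 and 2.06 in batch 2. With the Y-linked and Xist covariates it was 2.14, and Cited2 was called in no alternative. None of the 17 other genes tested in the HIF list had an unadjusted p under 0.05 with DESeq2. Hsf1, the main heat shock factor, was at -0.18 ± 0.18, and Chn1 at -0.17 ± 0.71. Tspan4, the closest tetraspanin to Tspan9, was at 0.25 ± 0.19, Ide, the other widely known M16 peptidase, at -0.02 ± 0.28, Cd84 of the SLAM family at 0.05 ± 0.25, and Limch1, the LIM domain relative of Lmo7, at -1.08 ± 0.97. None of these passed, and the intervals of the low genes are wide.

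**Figure D4:**
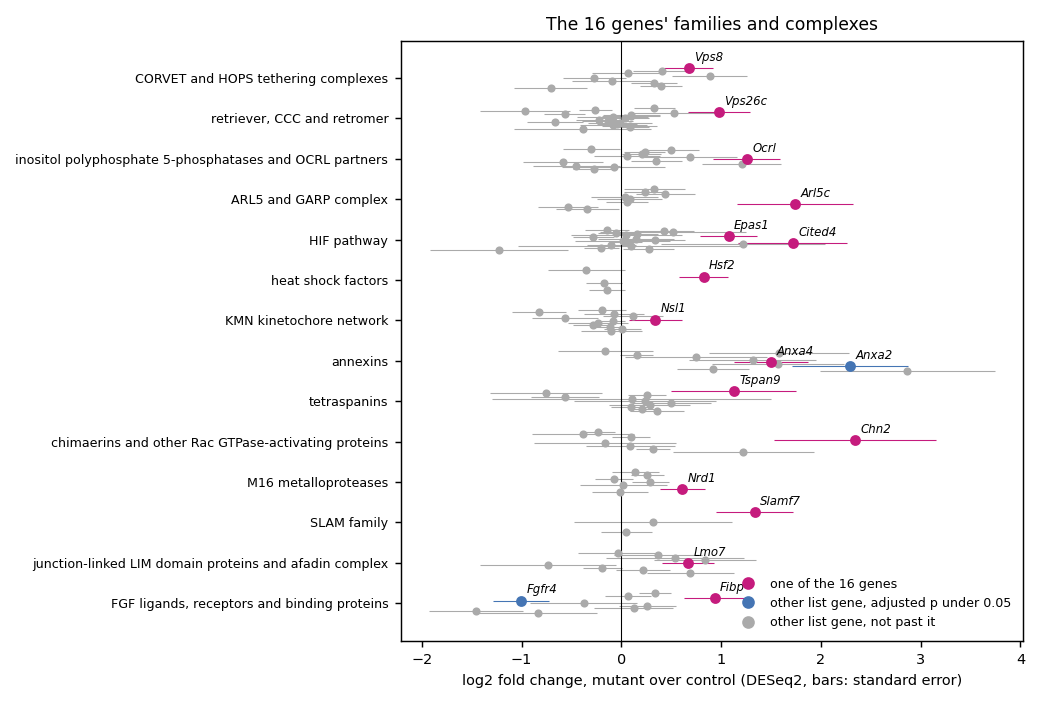
Log2 fold change of mutant over control embryos with its standard error (x axis, DESeq2 with batch as a term) for the genes tested in each of 14 lists (y axis); selected genes in magenta, other genes past the adjusted threshold in blue, the rest in grey. Anxa2 at 2.29 and Fgfr4 at -1.004 are the 2 blue points. 8 of the 9 grey or blue annexins lie right of 0, beside 49.8% of all genes tested.

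Lists that the study made from other samples gave readouts the rule had not used. None of the 16 genes is on the list of genes bound by PRDM10 in mouse embryonic stem cells, where 3.23% of the other genes with a mutant mean of at least 5 TPM are. By contrast, 24 of the 51 genes lower in every mutant are on it, a difference that was not tested. On the study's list of genes higher in embryonic stem cells 2 days after Prdm10 deletion were Ocrl and Lmo7, 12.5% of the 16 beside 6.495% of the other genes. Vps26c was on its list of genes lower there, 6.25% beside 10.02%. With 16 genes these shares rest on 0, 2 and 1 genes and are given as counts.

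The promoters of the 16 genes were searched for short motifs and for the letters of the PRDM10 site that the study had changed in its gel shift probe. RefSeq starts on GRCm38.p6 gave promoters, from 250 bases before to 50 after the start, for 13 of the 16 genes (not Epas1, Arl5c or Nsl1) and 21 starts. The probe and its mutated form are shown with the changed bases in capitals, because they define the pattern searched.
Wild-type probe: ctggcacagTGGTcgcGCCCggcccgcc
Mutated probe: ctggcacagCAACcgcATTTggcccgcc
The changed bases and the 3 unchanged bases between them, any letter allowed for the latter, give TGGTNNNGCCC on either strand. It was found in 13.0% of 439 PRDM10-bound genes with a promoter in the table, in 2.67% of 5402 genes with a mutant mean of at least 5 TPM other than the 16, and in 1.69% of all 27025 genes. Among the 13 it was in the promoters of Cited4 and Tspan9, the latter with 4 starts searched, which by start is 9.52% of 21 beside 2.18% of 6798. These are shown 5′ to 3′ on the strand of the gene, with the matching bases in capitals.
Cited4, chr4:120666313-120666612, plus strand: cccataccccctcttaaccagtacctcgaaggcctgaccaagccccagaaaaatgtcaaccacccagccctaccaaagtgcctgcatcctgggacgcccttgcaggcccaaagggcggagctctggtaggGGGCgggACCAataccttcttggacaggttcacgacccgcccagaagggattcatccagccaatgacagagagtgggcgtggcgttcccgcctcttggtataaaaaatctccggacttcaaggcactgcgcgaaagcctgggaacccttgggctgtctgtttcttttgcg
Tspan9, chr6:128143529-128143828, minus strand: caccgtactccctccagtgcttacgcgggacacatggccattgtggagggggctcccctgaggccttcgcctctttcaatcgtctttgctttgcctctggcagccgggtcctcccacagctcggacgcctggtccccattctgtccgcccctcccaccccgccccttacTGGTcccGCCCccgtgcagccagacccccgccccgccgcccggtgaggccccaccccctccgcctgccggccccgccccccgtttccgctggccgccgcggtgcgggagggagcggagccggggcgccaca
The match begins at position -120 from the start in Cited4, on the opposite strand, and at -81 in Tspan9. Both overlap a match to GGGCGG. Neither gene is on the PRDM10-bound list, and a match of letters does not show a site.

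The other motifs were searched on both strands, and with 13 genes each gene is 7.69% of the set. Since a gene with more starts has more sequence searched, shares are given by gene, beside the 5402 genes, and by start, for the 21 starts beside the 6798 of those genes. GGGCGG, the GC box, was in 9 of 13 genes (69.2% beside 69.8%, and by start 47.6% beside 63.8%). CCAAT was in 5 (38.5% beside 43.7%, and by start 33.3% beside 38.7%). TATAAA was in Cited4 alone (7.69% beside 8.16%, and by start 4.76% beside 6.83%). ACGTG, the core of the hypoxia response element, was in Chn2, Hsf2, Lmo7, Nrd1, Slamf7 and Vps26c (46.2% beside 31.2%), but by start its share was 28.6% beside 27.4%, nearly the same. CACGTG, which contains it, was in Hsf2 alone (7.69% beside 13.0%, and by start 4.76% beside 11.1%). GAANNTTC, a pair of heat shock units, was in Chn2, Lmo7 and Tspan9 (23.1% beside 7.39%), which hold 10 of the 21 starts, and by start its share was 14.3% beside 6.21%. TGANTCA, an AP-1 site, was in Slamf7 alone (7.69% beside 5.11%, and by start 4.76% beside 4.295%). GGAATG, a TEAD site, was in Tspan9 alone (7.69% beside 13.5%, and by start 9.52% beside 11.5%). TGACGTCA, the cyclic AMP response element, was in none (beside 4.41% of genes and 3.72% of starts). Median GC content was 57.5% over the 13 genes and 60.7% over the genes at that level.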

How the data were processed

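Single 8-cell embryos were profiled by RNA-seq. The authors aligned single-end reads with STAR 2.6.0c to GRCm38.p6 and ran RSEM on a GENCODE annotation, and deposited per embryo the expected count per gene, in which shared reads are divided. They also deposited the TPM, scaled to the same total in each library, the posterior mean TPM, its credibility limits and the effective length, which follows the isoform shares RSEM assigns. The deposited comparison table (the authors' own fold changes and p-values) was not used. Reads copied by PCR were not collapsed, so precision from counts covers counting error only.

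Groups and batches came from the labels. The labels do not say which controls were heterozygous, and replicate numbers follow accession order. The 16 genes, the gene lists and the tests were chosen with earlier results of these data known, and genes likely to be selected had been seen in a shortened table of the paper. The selection rule was applied to TPM. Symbols were matched for 54079 of 54146 identifiers, ignoring versions. Expected counts were rounded and tested across all genes with DESeq2 1.42.0 (batch and genotype, Wald test, unshrunken, Benjamini-Hochberg, genes with a mean normalised count above 10, adjusted p threshold 0.05). The batch by genotype term was fitted on the same table. Alternatives used edgeR 4.0.16 (quasi-likelihood, TMM), limma 3.58.1 on log2(TPM + 1) and log2(TPM + 0.1), other filters, effective length as an offset, single batches and sets without 1 embryo. Figures were drawn with matplotlib. Named were all 16 genes, genes just outside the rule, list genes called by DESeq2, the closest relative or partner in each list, and Prdm10. The fits and the rule were tested on simulated data. p-values measure the spread between single embryos. Promoters and coordinates were taken from RefSeq and GENCODE on GRCm38.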

Additional observations from a re-analysis of the deposited data

Results flagged for a closer look

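In 4 of 32 groups of values (16 genes in controls and in mutants, TPM), 1 embryo stood apart by Dixon's test at the 95% level. Chance does so in about 1 group in 20 of unselected values, a rate that does not hold here, because the rule bounded these same values. All 4 were mutants, and they are given as values. Mutant replicate 4 was at 8.55 TPM for Tspan9, where the other mutants lay between 4.35 and 4.68, and at 30.45 TPM for Fibp, where the others lay between 18.4 and 20.3. Mutant replicate 2 was at 18.64 TPM for Lmo7, against 8.60 to 11.5 in the others. Mutant replicate 3 was at 10.18 TPM for Gm21917, below the 12.7 to 13.6 of the others. Without mutant replicate 4 Tspan9 no longer met the rule, since its mutant mean fell under 5 TPM.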

How the results depend on the processing

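Over the 20 alternatives of the genotype fit, the call was lost in 15 for Slamf7, 12 for Epas1, 11 for Ocrl and 6 for Anxa4, which is 44 of 80 for the 4 called genes. For the other 12, 10 of 240 became calls. The rule gave 10 genes with a ratio of at least 2, 645 in batch 1 alone, 330 in batch 2 alone, and 20 to 46 with 1 embryo left out. It gave 20 genes with normalised counts (9 of the 16 among them). Over all genes DESeq2 called 144, and the count was 54 without a batch term, 78 in batch 1, 45 in batch 2, 35 with edgeR, 208 with the Y-linked and Xist covariates, 22 and 21 with limma (pseudocounts 1 and 0.1), and 86 to 253 with 1 embryo left out (253 without control replicate 2, 86 without mutant replicate 2, 91 without mutant replicate 5).

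Of the 16, 4 were called by DESeq2, and 6 with an effective length offset. The count was 1 without a batch term, 1 in batch 1, 0 in batch 2, 0 with edgeR and 0 with limma at either pseudocount. It was 2 with a mean count above 100, and 1 to 7 with 1 embryo left out. Unadjusted p-values were under 0.05 for 5 of them in batch 2, 14 with edgeR, and 16 and 15 with limma, beside 3.20%, 4.72%, 4.74% and 4.65% of all genes on the higher side. Of the list genes, 2 were called, and 1 with an effective length offset, 0 without a batch term, 0 in batch 1, 0 with edgeR and 0 with limma at either pseudocount. It was 1 with a mean count above 100, and 0 to 5 with 1 embryo left out. In batch 2 alone Inpp5d and Fgf4 were called (DESeq2 adjusted p = 0.0435 and 0.0142), while Anxa2 and Fgfr4 were not. Interaction calls among the 16 were 0 in DESeq2, with TMM factors, with the length offset, with edgeR and with 1 embryo left out, the alternatives run for that term.

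Of 25 named list genes followed through the alternatives, the log2 fold change turned in sign for 5, none of them called. It was 0.010 for Hsf1 in batch 2, 0.79 for Chn1 and 0.14 for Ide in batch 1, and -0.17 for Cd84 in batch 2. With 1 embryo left out it ran from -0.23 to 0.50 for Hif1a, -0.91 to 0.54 for Chn1, -0.27 to 0.13 for Ide and -0.039 to 0.16 for Cd84. The cause of these changes was not tested. No paired analysis was possible because replicate numbers were given in accession order and do not pair embryos. Depth limited the genes with few reads, such as Arl5c, with 4 to 17 expected counts in controls.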
